A study of Mus musculus with 21 samples.

Results

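The HOX cluster genes were analysed as the genes of the deposited RNA table whose symbol is Hoxa, Hoxb, Hoxc or Hoxd followed by a number. The rule used symbols only and no measured value. It found 37 genes among 34478, and 32 of them were expressed, taken as 10 or more normalized counts in 3 or more of the 21 samples. These were 11 of 11 Hoxa, 10 of 10 Hoxb, 9 of 9 Hoxc and 2 of 7 Hoxd genes.

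HOX genes encode homeodomain transcription factors that give cells along the body axis their position. They lie in clusters, and their order on the chromosome follows the order in which they are used from head to tail, so that low numbers are anterior and high numbers posterior genes. Genes of different clusters with the same number are paralogs. HOX proteins bind DNA together with TALE homeodomain cofactors of the PBX, MEIS and PKNOX families. Polycomb complexes keep silent clusters closed, MLL complexes keep active genes open, and retinoic acid opens the clusters from the anterior end in the embryo. The pancreas is patterned mainly by other homeobox genes, among them Pdx1.

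The cells were 6 primary lines, #3, #4, #6, #7, #9 and #10, from pancreatic ductal adenocarcinomas (PDAC) of mice whose genotype included Ptf1a wt/Cre and Trp53 loxP/loxP, in which Cre is expressed from the locus of a pancreatic transcription factor. All groups shared this genotype. Parental cells had not seen the drug, resistant cells grew in trametinib, an inhibitor of the kinase MEK, at 100 times their first IC50, and reverting cells had been kept without the drug for 5 (P5) or 12 (P12) passages. Parental, resistant and P12 cells were sequenced once from each of the 6 lines, and P5 cells from lines #3, #7 and #9. The label of the P5 samples of #7 and #9 gives 12 passages in its description where the sample name gives 5. Each line comes from 1 tumor, and the study describes resistant cells as the progeny of 1 clone in the lines it examined for this. Lines served as replicates. In the fit without a block, which ignores that samples share a line, p-values between states measure the spread between lines. With the line as a block, they measure how far changes between states varied from line to line.

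The estimated depth was 24.1 to 42.6 M reads per sample, and 3 reads were worth 2.31 to 4.06 normalized counts, which covers counting error only. Of the epithelial markers, Cdh1 had between 26491 and 53229 normalized counts in the parental cells of 5 lines and 816 in #9. Epcam was listed at 0 in 20 of 21 samples, and Krt8 lay between 73967 and 92917 in those 5 parental lines, so a value of 0 in this table is given below only as listed at 0. The leukocyte marker Ptprc stayed at or below 20.0 in every sample and the endothelial marker Pecam1 at or below 74.0. Other markers of these cell types were not all low. Of the leukocyte markers, Cd68 lay between 118 and 404 in all samples and Csf1r reached 2530 in resistant #10. Of the endothelial markers, Tek had 2512 in resistant #6 and 1132 in resistant #4, where Kdr had 865.

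The promoters of Hoxa9, the Hoxa gene with the highest mean value, and of Hoxa13, whose values went against those of the rest of its cluster, are shown as the 250 bases before the RefSeq start site (GRCm38.p6), 5′ to 3′ on the minus strand, with CG dinucleotides in capitals.
Hoxa9, chr6:52227371-52227620: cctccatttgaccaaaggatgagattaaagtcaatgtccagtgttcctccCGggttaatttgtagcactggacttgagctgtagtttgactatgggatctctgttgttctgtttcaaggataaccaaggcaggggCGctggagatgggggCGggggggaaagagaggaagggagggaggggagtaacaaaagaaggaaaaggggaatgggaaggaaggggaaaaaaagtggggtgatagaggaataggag
Hoxa13, chr6:52260881-52261130: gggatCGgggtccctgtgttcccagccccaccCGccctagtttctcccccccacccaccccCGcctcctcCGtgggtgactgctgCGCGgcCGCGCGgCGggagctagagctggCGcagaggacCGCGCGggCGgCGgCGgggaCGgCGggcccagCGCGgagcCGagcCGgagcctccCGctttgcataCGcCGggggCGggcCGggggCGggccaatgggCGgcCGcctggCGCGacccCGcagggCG
The Hoxa9 window held 3 CG and the Hoxa13 window 35. Among 32851 mouse promoter windows of 250 bases, 71% held at least 3 CG and 2.97% at least 35, with a median of 6. The RefSeq table matched 20 of the 37 HOX genes (9 Hoxa, 3 Hoxb, 1 Hoxc and 7 Hoxd), whose 22 windows held 2 to 35 CG with a median of 12.5. CG was counted as these 2 letters in this order, which read the same on both strands.

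The clusters also encode microRNAs of the miR-196 family, which are known to act on HOX transcripts. They are shown from RefSeq (GRCm38.p6) with the seed, bases 2 to 8, in capitals.
mmu-miR-196b-5p, chr6:52230129-52230150, minus strand: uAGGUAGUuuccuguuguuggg
mmu-miR-196a-5p, chr11:96265187-96265208, plus strand: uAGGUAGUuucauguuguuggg
Both have the same seed. Mir196b lies within the span of Hoxa9 and was not analysed here. Mir196a-1, in the Hoxb cluster, had 12.7, 0 and 0 normalized counts in parental, resistant and P12 cells of #4 and 21.3, 56.6 and 198 in those of #6, and was listed at 0 in the other 15 samples. These are counts on the annotated gene in an RNA library and not measurements of the mature microRNA.

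Most genes of a cluster were on or off together in a line. In the GENCODE M21 annotation (GRCm38), Hoxa spans chromosome 6 from 52155590 to 52260880 on the minus strand, Hoxb chromosome 11 from 96194316 to 96368256, Hoxc chromosome 15 from 102921103 to 103036852 and Hoxd chromosome 2 from 74668310 to 74748442, these 3 on the plus strand. Parental #4 and #6 had all 11 Hoxa genes at 10 or more normalized counts, #9 had 5, and #3, #7 and #10 had 1 each. Hoxb was on in parental #4 and #6, with 9 of 10 genes each, and in no other parental line. Hoxc was on in parental #6 with 7 of 9 genes, while #9 had 1 and the other 4 lines 0. The 2 Hoxd genes that passed the filter, Hoxd4 and Hoxd8, were at 10 or more in the 3 samples of #6 and in no other.

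**Figure D1:**
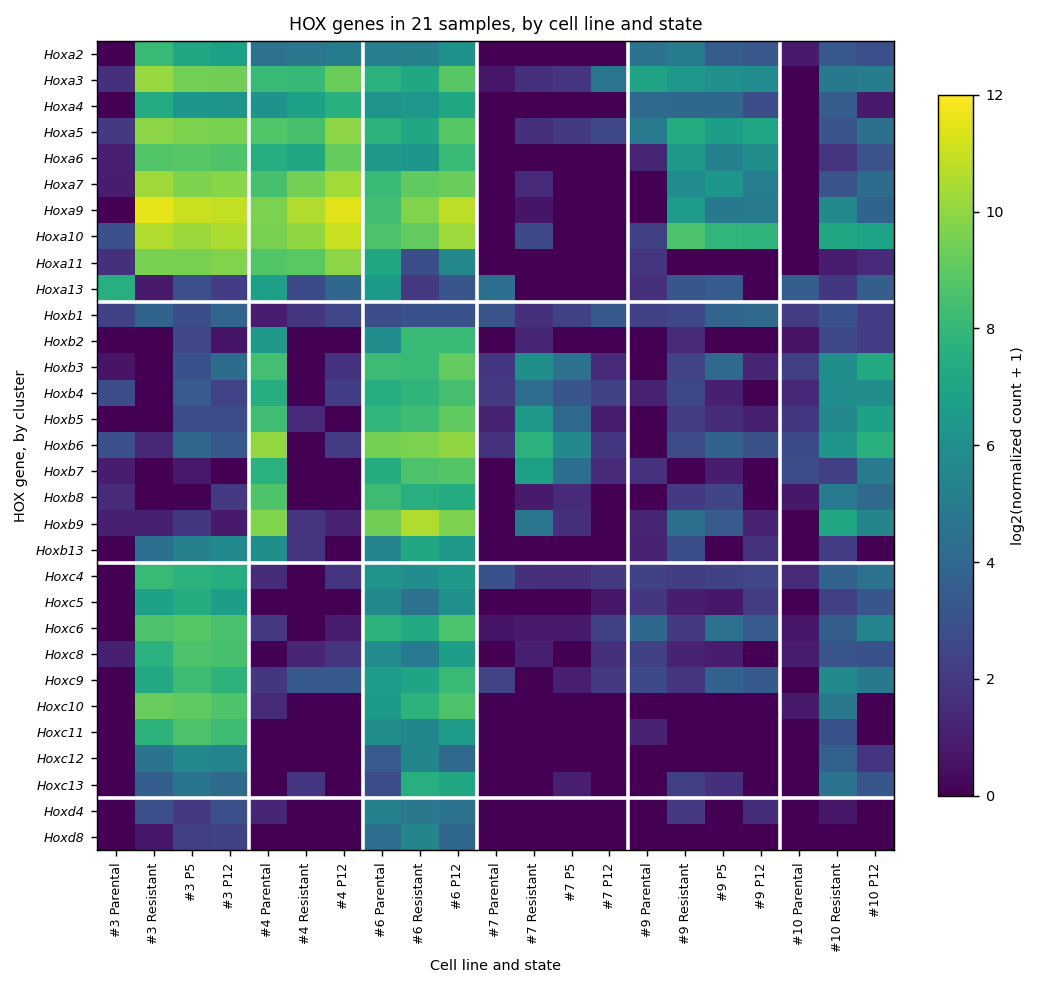
Level of 31 HOX genes (rows, by cluster) in 21 samples (columns, by cell line and state) as log2(normalized count + 1), on a color scale from 0 to 12. Hoxa is on in all states of #4 and #6, Hoxa and Hoxc go from dark in parental to bright in resistant cells of #3, Hoxb goes from bright to dark in #4, and #7 stays dark in Hoxa and Hoxc.

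After resistance the line in which a cluster was on changed. In resistant cells Hoxa had 10 genes at 10 or more in #3 and #4, 9 in #6 and #9, 5 in #10 and 1 in #7. The summed level of the Hoxa genes went from 206 normalized counts in parental to 9909 in resistant #3, of which Hoxa13 made up 189 and 0.846. In #10 it went from 19.3 to 414 and in #9 from 214 to 1024. The lines that already expressed the cluster differed less, with 3527 and 4932 in #4 and 1884 and 2619 in #6. In #7 the sum was 24.3 in parental and 34.9 in resistant cells, so this line had close to no Hoxa expression in either state.

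The Hoxb cluster moved in both directions. Its sum went from 3491 normalized counts in parental #4 to 9.72 in resistant #4, where 0 of the 10 genes were at 10 or more. It went from 17.1 to 517 in #7 and from 23.9 to 439 in #10, where 6 genes each were at 10 or more in resistant cells. In #6 it was 2696 and 4132. Lines #3 and #9 stayed low, with 20.9 and 35.6 in #3 and 10.3 and 55.7 in #9.

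The Hoxc cluster was on in more lines after resistance. Its sum went from 1.06 to 1984 in #3, where all 9 genes were at 10 or more in resistant cells, and from 4.02 to 157 in #10, with 6 genes. In #6 it was 659 and 882. Hoxc6, the only Hoxc gene on in parental #9, had 15.0 there and 3.04 in resistant #9. Lines #4 and #7 had 0 Hoxc genes at 10 or more in any state.

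**Figure D2:**
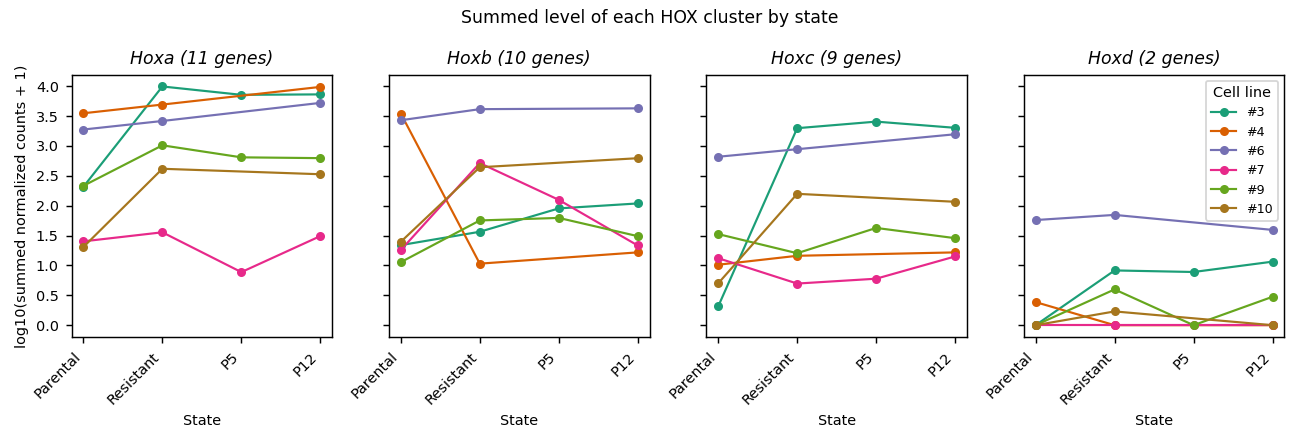
Summed normalized counts of the expressed genes of each HOX cluster, as log10(sum + 1) on the vertical axis, by state, with 1 point per sample and a line joining the samples of each cell line (#4, #6 and #10 have no P5 sample). Hoxa goes from 206 in parental to 9909 in resistant #3, Hoxb from 3491 to 9.72 in #4, and Hoxb in #7 from 17.1 to 517 and back to 20.6 in P12.

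After drug withdrawal, the Hoxa sum of P12 cells was 7301 in #3, 9742 in #4, 5260 in #6, and 335 in #10, each above the parental value of its line, as was that of #9. Hoxb in #4 remained low, with 15.6 in P12 cells, and Hoxc in #3 remained high, with 2012. The exception was Hoxb in #7, whose sum was 517 in resistant, 124 in P5 and 20.6 in P12 cells, against 17.1 in parental cells. The P5 samples of #3 resembled its other samples taken after resistance, with sums of 7178 for Hoxa and 2555 for Hoxc.

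These switches were counted per gene and line, a measure chosen after the values were seen and given without a test. A pair of a gene and a line counted as switched when it crossed 10 normalized counts and changed by at least 2 on the log2 scale. Between parental and resistant cells, 51 of 134 HOX pairs below 10 were switched on (38.1%), against 21% of such pairs over all genes tested, and 14 of 58 pairs at 10 or more were switched off (24.1%), against 6.21%. Line #3 gave 20 of the 51 switched on and #10 gave 17. Line #4 gave 10 of the 14 switched off, 9 of them Hoxb genes. Without #3 the share switched on was 30.1% against 19% over all genes, and without #4 the share switched off was 10.5% against 6.2%. Between resistant and P12 cells, 4 of 98 HOX pairs were switched on (4.08%), against 20.7% over all genes, and 9 of 94 switched off (9.57%), against 3.32%, 5 of these 9 being Hoxb genes of #7. Genes of 1 cluster in 1 line are neighbours on 1 chromosome and no independent observations.

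Did HOX genes differ between states beyond the spread of the lines? With limma on log2(normalized count + 1) over all 21 samples, 0 of 32 HOX genes passed an adjusted p below 0.01 with a log2 fold change above 1 or below -1 between resistant and parental cells, where 5.3% of the 19300 genes tested did. At an unadjusted p below 0.05 there were 3, 2 higher, Hoxc13 among them, and 1 lower (Hoxa13) in resistant cells, against 29.2% of all genes (14.6% higher and 14.6% lower). The fitted fold changes were large and their errors larger: the median log2 fold change over the HOX genes was 1.31 against -0.00 over all genes, with a median standard error (SE) of 1.69 against 0.40. The fitted mean was higher in resistant cells for 28 of 32 HOX genes, against 49.6% of all genes. By cluster this held for 10 of 11 Hoxa genes (median log2 fold change 2.37), 7 of 10 Hoxb (0.16), 9 of 9 Hoxc (1.54) and 2 of 2 Hoxd (0.48). Members had to reach 10 in 3 samples to be counted, and the direction of a cluster was that of few lines.

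With the cell line as a block, 3 HOX genes passed the same thresholds, all higher in resistant cells, where 10.5% of all genes passed and 4.85% were higher. Hoxa10 and Hoxc13 were among them. At an unadjusted p below 0.05 there were then 10 HOX genes, against 37.8% of all genes.

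Hoxa10 and Hoxa9 are posterior genes known for their role in blood stem cells and in leukemia. Hoxa10 had 6.72, 751, 404, 0, 3.80 and 0 normalized counts in parental #3, #4, #6, #7, #9 and #10, and 1512, 1038, 553, 5.20, 384 and 142 in resistant cells. Its log2 fold change was 4.11 (SE 2.16, adjusted p = 0.216 in limma), and with the block 4.11 (SE 0.99, adjusted p = 0.0076). In P12 cells it had 1450, 2042, 1194, 0, 220 and 125. The same 5 lines were high in resistant and in P12 cells, and #7 was at or near 0 in all 4 states.

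Hoxa9 was listed at 0 in parental #3, #7, #9 and #10 and had 790 in #4 and 326 in #6. Resistant cells had 3043 in #3, 1532 in #4, 858 in #6, 0.612 in #7, 97.1 in #9 and 49.6 in #10. P12 cells had 1903, 2848, 1781, 0, 30.9 and 13.6. The log2 fold change between resistant and parental cells, 4.48 (SE 2.50, adjusted p = 0.245 in limma, and 0.013 with the block), passed in neither fit. Per kilobase of exon, the mean level over all samples was 164 normalized counts for Hoxa10, 155 for Hoxa6, 142 for Hoxa5 and 131 for Hoxa9, against 9.60 for Hoxa13.

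In 2 lines the genes that were on after resistance ended at Hoxa10. Hoxa11, which follows it toward the posterior end, was at 0 in resistant #9 and 0.942 in resistant #10, where Hoxa10 had 384 and 142. In #3 it went from 2.14 to 779, and in #6 from 144 to 6.37 with 45.9 in P12. Of the exons of Hoxa11, 35.0% overlap genes of the other strand. The antisense gene Hoxa11os had 4.64 and 432 in parental and resistant #3 and 72.5 and 2.49 in #6, and was at or below 3.70 in all samples of #9.

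Hoxa13, the most posterior gene of the cluster, with a known role in the limb, gut and urogenital tract, went the other way and was chosen for description after its values were seen. Parental cells had 189 normalized counts in #3, 107 in #4, 93.1 in #6, 19.6 in #7, 2.15 in #9 and 10.7 in #10. Resistant cells had 0.846, 5.56, 2.95, 0, 8.15 and 2.88, so that 5 of 6 lines were lower and #9 was higher. P12 cells had 3.57, 15.8, 7.91, 0, 0 and 11.4. The log2 fold change between resistant and parental cells was -3.29 (SE 1.00, adjusted p = 0.0315 in limma, and 0.0113 with the block), past the threshold in neither fit, and -4.25 (adjusted p = 0.00613) without #9. Between P12 and parental cells it was -2.90 (SE 1.00, adjusted p = 0.175). Hottip, the non-coding gene known to lie beside Hoxa13, had 40.2 normalized counts in parental #3, 18.03 in parental #4 and 6.18 in parental #6, and was under the value of 3 reads in all resistant cells. It passed no filter, was not tested and was also picked after its values were seen.

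**Figure D3:**
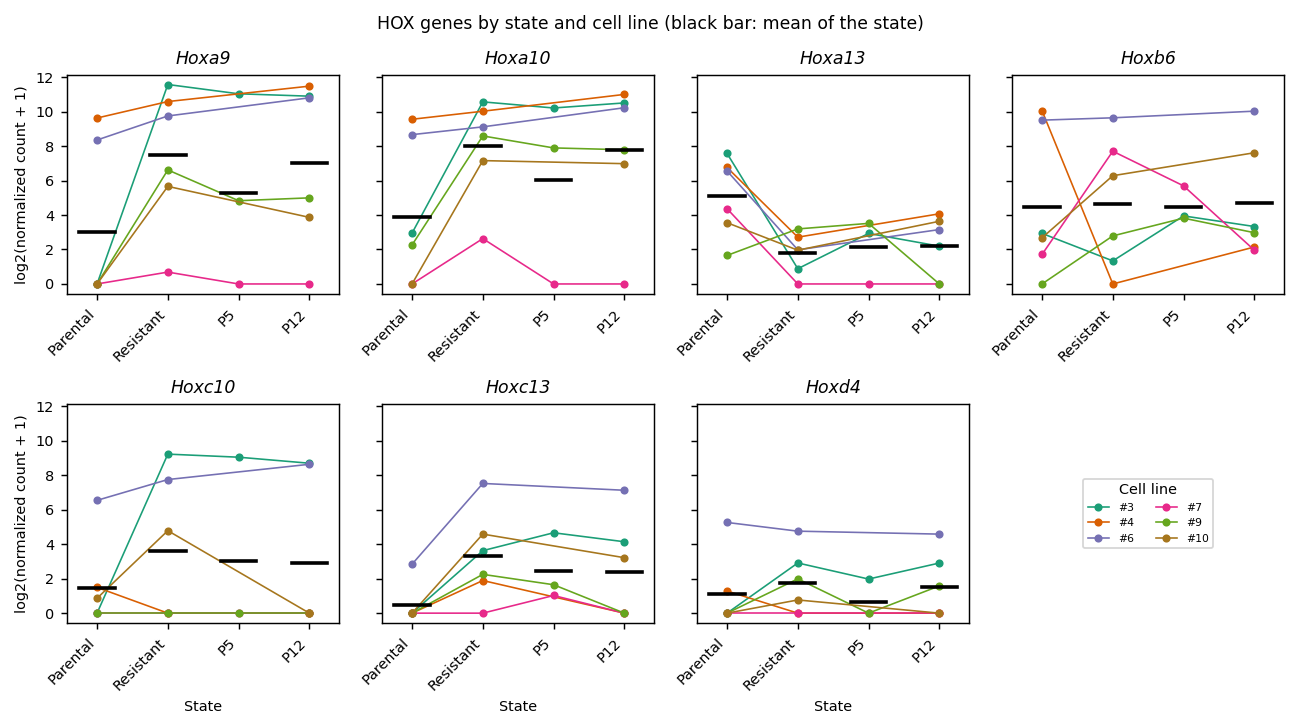
Level of 7 HOX genes as log2(normalized count + 1) by state, with 1 point per sample, a line joining the samples of each cell line and a black bar for the mean of the state (6 lines, or 3 for P5). Hoxa9 and Hoxa10 are higher in resistant than in parental cells of 5 lines and near 0 in #7, Hoxa13 is lower in 5 lines, and Hoxb6 goes from 1062 to 0 normalized counts in #4 and from 2.27 to 207 in #7.

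Hoxb6 was the Hoxb gene with the highest mean value. Parental cells had 6.63 normalized counts in #3, 1062 in #4, 725 in #6, 2.27 in #7, 0 in #9 and 5.40 in #10, and resistant cells 1.53, 0, 797, 207, 5.91 and 76.7. P12 cells had 9.07, 3.42, 1041, 2.89, 6.86 and 195. The level was thus kept in #6, lost in #4, gained in #10 and gained only for a time in #7, and the log2 fold change of 0.15 (SE 1.95, adjusted p = 0.973 in limma) averaged over opposite lines. The neighbours Hoxb2 to Hoxb9 followed the same lines, with a median correlation of 0.90 over 28 gene pairs and 21 samples. In resistant #7, however, Hoxb2 had 1.42 and Hoxb8 0.851 where Hoxb5 had 90.4 and Hoxb7 110. Hoxb1, the most anterior gene, reached at most 17.0 in any sample, and its correlation with Hoxb2 to Hoxb9 had a median of -0.25. Hoxb13, far from the other genes of the cluster and known as a prostate and colon gene, had 61.7 in parental and 2.71 in resistant #4, 41.8 and 142 in #6, and 0 and 19.6 in #3.

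Hoxc10, a posterior gene and the Hoxc gene with the highest mean value, had 92.4 normalized counts in parental #6, 1.82 in #4, 0.819 in #10 and 0 in #3, #7 and #9. In resistant cells it had 598 in #3, 214 in #6 and 26.6 in #10 and was listed at 0 in the others. In P12 cells it had 414 in #3 and 397 in #6 and was listed at 0 in the other 4 lines, #10 included. Its log2 fold change between resistant and parental cells was 2.14 (SE 2.18, adjusted p = 0.563 in limma), and 0.73 without #3. Hoxc13, the posterior end of the cluster and a hair follicle and nail gene, was at 6.16 in parental #6 and listed at 0 in the other parental lines. Resistant cells had 11.3 in #3, 2.71 in #4, 183 in #6, 0 in #7, 3.76 in #9 and 23.0 in #10. The log2 fold change of Hoxc13 was 2.84 (SE 1.27, adjusted p = 0.14 in limma), and with the block 2.84 (SE 0.64, adjusted p = 0.00521). The values in #4 and #9 were near those of 3 reads. Hotair, the non-coding gene known from the Hoxc cluster, had 0 in parental and 102 in resistant #3, 194 in P5 and 152 in P12 cells of #3, and at most 13.7 in any other line.

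The Hoxd cluster was close to silent. Hoxd4 had 37.4, 26.0 and 23.0 normalized counts in parental, resistant and P12 cells of #6 and at most 6.52 in any other line, and Hoxd8 had 19.2, 43.1 and 15.4 in #6 and at most 4.07 elsewhere. In the annotation, 52.3% of the exon bases of Hoxd4 are shared with genes of the same strand, so its reads could be split with them. The highest value of the 5 genes below the filter was 3.86 for Hoxd3, 17.2 for Hoxd9, 6.15 for Hoxd10, 3.61 for Hoxd11 and 1.23 for Hoxd13. The single value above 10 was that of Hoxd9 in parental #6. Hoxd1 and Hoxd12 were not analysed here.

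After drug withdrawal, 0 of 32 HOX genes passed the thresholds between P12 and resistant cells, where 2.13% of all genes did, and 0 had an unadjusted p below 0.05 in limma, against 19.8% of all genes. Between P12 and parental cells 0 passed, as did 0.114% of all genes, and 1 gene, Hoxa13, had an unadjusted p below 0.05 and was lower in P12 cells, against 15.3% of all genes and 7.83% lower. With the block 0 HOX genes passed in either comparison, against 4.52% and 0.523% of all genes. At an unadjusted p below 0.05 there were then 0 between P12 and resistant cells, against 27.2%, and 11 between P12 and parental cells, against 23.8%. Of these 11, P12 cells had more of 10 (11.4% of all genes) and less of 1 (12.4%). The median HOX log2 fold change was -0.14 between P12 and resistant and 1.35 between P12 and parental cells. Both comparisons share their P12 samples. Between P5 and resistant cells 0 HOX genes passed, against 0.378% of all genes and, with the block, 0.611%, and 0 had an unadjusted p below 0.05, against 15.4%, or 15.8% with the block. Between P5 and parental cells 0 passed, against 0.0259% in either fit. Without the block Hoxa13 alone had an unadjusted p below 0.05 and was lower, against 10.4% of all genes and 5.03% lower. With the block, which adjusts for P5 cells coming from #3, #7 and #9 alone, it did not (unadjusted p = 0.0744 in limma), and 6 other genes did, against 14.4% of all genes. All 6, Hoxa5, Hoxa6, Hoxa7, Hoxa9, Hoxa10 and Hoxc13, were higher in P5 cells, against 7.11%.

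HOX genes differed between cell lines. In limma's F-test of the 5 cell line terms, with the state in the model, 15 of 32 HOX genes had an adjusted p below 0.01, against 7.92% of all genes tested, and 30 had an unadjusted p below 0.05, against 41%. They were 7 of 11 Hoxa (Hoxa4 to Hoxa7 and Hoxa9 to Hoxa11), 0 of 10 Hoxb, 6 of 9 Hoxc (Hoxc5, Hoxc8 and Hoxc10 to Hoxc13) and 2 of 2 Hoxd genes, and the Hoxd genes passed the filter through #6 alone. Hoxd8 had the lowest adjusted p (0.000217) and, of the Hoxa genes, Hoxa5 (0.000775). The count rested on single lines: it was 1 of 32 without #7, against 2.55% of all genes, 7 without #6 (5.83%) and 7 without #9 (1.8%), and 13 to 20 without each of the other lines. P5 and P12 cells were grown from the resistant cells of their line. A change in a line that came with resistance and was kept therefore entered the line terms in part.

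Over the 18 samples of parental, resistant and P12 cells, differences between lines made up a median of 63.2% of the sum of squares of the HOX genes on the log2 scale and differences between states 9.1%, against 35.8% and 19.8% over all genes. P12 cells were grown from the resistant cells of their line, so a change kept after withdrawal counted in part as a difference between lines. An example is Hoxa in #3, with sums of 206, 9909 and 7301 normalized counts in parental, resistant and P12 cells. The line share was above 50% in 28 of 32 HOX genes and 4841 of 19300 genes. These 28 include Hoxd4 (83.8%) and Hoxd8 (92.8%), which passed the filter through #6 alone, so the filter itself favored a high line share in them. Hoxa13 stood apart with 26.4% between lines and 44.3% between states. Without #6 the median line share was 42.7%, without #3 it was 79.4%, and the median state share was 14.1% and 3.4%.

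**Figure D4:**
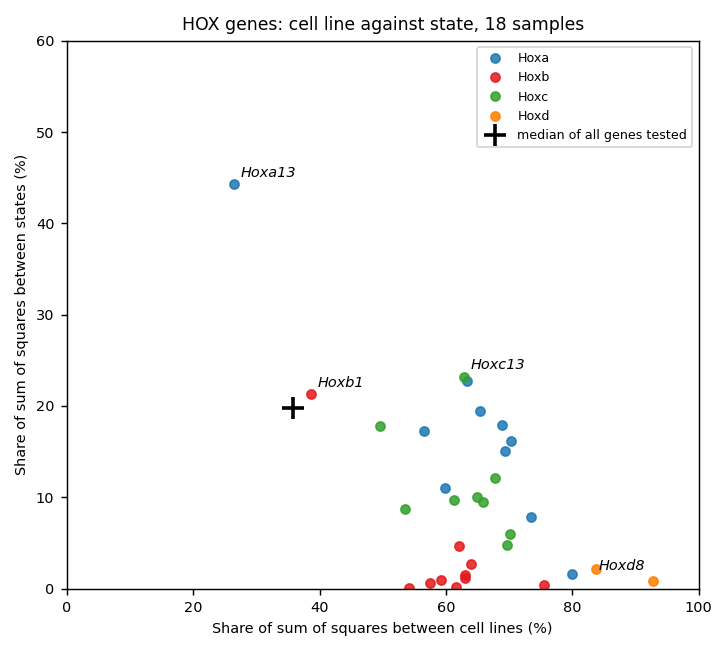
Share of the sum of squares of log2(normalized count + 1) between cell lines (horizontal axis, %) and between states (vertical axis, %) for 31 HOX genes, over 18 samples, with the median of all genes tested as a cross at 35.8 and 19.8. Hoxb genes other than Hoxb1 lie along the bottom with under 5% between states, and Hoxa13 is the 1 gene with more between states than between lines.

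Genes of a cluster varied together and clusters varied apart. Over the 21 samples, which share lines and states, the median correlation of log2 values between Hoxa genes other than Hoxa13 was 0.89 (45 pairs) and that between Hoxc genes was 0.91 (36 pairs). Hoxa13 had a median correlation of 0.15 with the other Hoxa genes. Between Hoxa and Hoxb genes the median was 0.23, between Hoxb and Hoxc 0.36 and between Hoxa and Hoxc 0.58.

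The other genes of the pathway were taken from fixed lists. Of 9 TALE cofactors 0 passed between resistant and parental cells, against 5.3% of all genes, and 3 had an unadjusted p below 0.05, against 29.2%. With the block 2, Meis1 and Pbx4, passed, against 10.5%. Meis1, a HOX cofactor, had 45.5 to 611 normalized counts in parental and 385 to 1529 in resistant cells and was higher in 6 of 6 lines (log2 fold change 1.77, SE 0.56, adjusted p = 0.0375, and 0.000424 with the block). Of 30 Polycomb genes, 2 rose and 1 fell, where 2.57% of all genes rose and 2.73% fell. Ring1, a ubiquitin ligase subunit, rose by 1.10 (SE 0.26, adjusted p = 0.00724), while its paralog Rnf2 fell by 1.01 (SE 0.18, adjusted p = 0.00123) on the log2 scale. Of 16 MLL complex and H3K27 demethylase genes 0 passed, and 6 had an unadjusted p below 0.05, against the same 29.2%. All adjusted p-values are from limma.

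Of 16 tested genes of retinoic acid signaling, 0 rose and 2 fell in resistant cells, where 2.57% of all genes rose and 2.73% fell. With the block 4 fell, Rbp4 and Rdh10 as well, against 5.6% of all genes. Aldh1a3, which makes retinoic acid, had between 81.0 and 450 normalized counts in parental and between 5.36 and 33.5 in resistant cells (log2 fold change -3.67, SE 0.56, adjusted p = 0.000303), and the groups did not overlap. The other enzymes of this kind, described after their values were seen, had higher means in resistant cells and passed in neither fit. Aldh1a1 had 135, 221, 192, 372, 20.5 and 621 normalized counts in parental #3, #4, #6, #7, #9 and #10 and 19038, 30722, 14555, 238, 78.5 and 6141 in resistant cells (log2 fold change 4.17, SE 1.94, adjusted p = 0.157, and 0.0133 with the block). Aldh1a2 had 0 to 35.2 in parental cells, and 9263, 2325, 3036, 0, 0 and 34.5 in resistant cells of the same lines (log2 fold change 3.52, SE 2.31, adjusted p = 0.335, and 0.116 with the block). Of these enzymes, Aldh1a3 was thus lower in all 6 lines, while Aldh1a1 was higher in 5 of 6. Rxra, a nuclear receptor, fell by 1.65 on the log2 scale (SE 0.34, adjusted p = 0.00292). Of the 2 testable homeobox genes outside the clusters, both fell. Cdx2, a ParaHox gene known to activate posterior HOX genes in the embryo and gut, had 670 to 2086 normalized counts in parental cells and was at 0 in resistant #4, #6, #9 and #10, 1.03 in #3 and 40.7 in #7 (log2 fold change -8.99, SE 0.85, adjusted p = 3.12e-06). Pdx1, the pancreatic ParaHox gene, had 955 to 1868 in parental and 0 to 416 in resistant cells (log2 fold change -6.78, SE 1.43, adjusted p = 0.00362). In P12 cells Cdx2 had 27.9 to 381, higher than in resistant cells by 6.11 (SE 0.85, adjusted p = 0.00031). Of 8 tested non-coding genes of the clusters 0 passed (2 at an unadjusted p below 0.05, against 29.2% of all genes) and 1, Hotairm1, rose with the block, against 4.85% (log2 fold change 2.94, SE 0.69, adjusted p = 0.0063); it lies at the anterior end of Hoxa and was at 17.2 in resistant #7, the lowest resistant value.

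Markers of cell identity moved in the same comparison, in which 2.57% of all genes rose and 2.73% fell, and 4.85% and 5.6% with the block. Of the epithelial list, 2 of 7 tested genes fell (Cldn4 and Cldn7), and 5 of 7 with the block, and its summed level was 15953 to 283604 normalized counts in parental and 1014 to 209985 in resistant cells. Of the mesenchymal list 1 of 8 rose (Cdh2), and its sum was 66380 to 252386 and 94424 to 339021. Of the fibroblast list 0 of 9 passed, and 3 with the block (Col1a1, Col3a1 and Pi16), all higher; its sum was 111 to 23689 in parental and 562 to 411454 in resistant cells. Line #7, with nearly no Hoxa and Hoxc, had the lowest fibroblast sum of the resistant, P5 and P12 cells and the highest epithelial sum. For Hoxc other lines went the other way. Resistant #4 and #9 had Hoxc sums of 13.5 and 15.0 normalized counts and fibroblast sums of 197743 and 411454. In parental cells #3, and not #7, had the lowest fibroblast sum (111) and the highest epithelial sum (283604). Of the leukocyte list 0 of 4 tested genes passed (sums of 143 to 279 and 211 to 2911), of the endothelial list 1 of 4 rose (Tek, sums of 37.1 to 166 and 15.8 to 2753), and of the acinar and endocrine list 0 of 3 (sums of 43.6 to 279 and 2.04 to 542). The part of these markers in the HOX values was not tested. In bulk RNA, fewer cells that express a gene and less RNA of it per cell cannot be told apart.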

How the data were processed

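RNA of 21 samples from 6 cell lines in 4 states was analysed. Sample labels gave the groups and lines, and the members and gene lists were chosen with earlier results of these data known. The deposited table holds signal values, gene-level counts that the authors trimmed (Skewer), quantified (salmon 0.12, genome build mm10), imported (TXImport) and normalized with DESeq2 1.18 (versions from the submitters' processing notes where given); the transcript annotation is not given in the sources used here. Normalization to size factors makes samples comparable but not genes of different length. Raw reads could not be recovered: 40.4% to 67.5% of low values fell on multiples of 1 step (tolerance 0.02 of a step), from which depth was estimated.

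Values were tested as log2(value + 1) for the 19300 genes with at least 10 in at least 3 samples, with limma 3.58.1 (lmFit, contrasts, eBayes with a trend; R 4.3.3) in 1 fit of 4 states without covariates, of which the study's methods name none. Genes were called at a Benjamini-Hochberg adjusted p below 0.01 over all genes with a log2 fold change over 1 or under -1. Cell lines were compared with limma's F-test of line terms beside the state. On simulated data with 19300 genes, the test between resistant and parental cells recovered 45 of 100 genes changed by 2 and 80 of 100 changed by 4 on the log2 scale, with 0 of 19100 unchanged genes called, and the line test 176 of 200 with 2 of 19100 called. The changed genes were drawn at random from all genes tested. Their median SE between resistant and parental cells was 0.40 over all genes, against 1.69 over the HOX genes. The recovered shares therefore do not hold for HOX genes, whose recovery was not simulated.

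The line numbers in the labels pair the samples, since each number is 1 cell line: deviations from the state means correlated between samples of the same line with a mean of 0.24 (parental and resistant, lowest 0.16), 0.46 (resistant and P12) and 0.32 (parental and P12, lowest 0.0082), and had negative means between lines. The fit with the line as a block was an alternative.

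A few items are not reported here. The other HOX genes past the filter were plotted, and per-sample values were given for those called between resistant, parental and P12 cells in either fit and for the member of each cluster with the highest mean. Of the other lists, called genes and at most the 3 largest folds were given. Coordinates and exon lengths are from GENCODE M21, sequences from RefSeq. Alternatives were pseudocounts of 0.5 and 8, no filter, a mean of at least 100, upper quartile rescaling, an adjusted p below 0.05, limma without a trend, the block, and each line left out. No sequencing batch is given in the sample labels. Python 3.11.15, numpy 2.4.6, pandas 2.3.3, scipy 1.17.1 and matplotlib 3.10.9 were used.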

Additional observations from a re-analysis of the deposited data

Results flagged for a closer look

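In 11 of 93 groups of 6 lines (31 genes in parental, resistant and P12 cells), the highest or lowest line lay far from the others on the log2 scale, with a gap above 0.625 of the range of the group. Chance flags about 1 in 20 groups where values have no floor, a rate that does not hold for groups with many values at 0. Genes of 1 cluster are also no independent groups. In 10 of the 11 groups the line was #6, which was highest. Hoxd4 and Hoxd8 passed the filter through #6 alone, so #6 had to be highest in their groups. Where all other lines are at 0, any value above 0 gives a gap of 1. In parental cells the gap of #6 was 0.667 of the range for Hoxc5 (50.6 normalized counts, against at most 2.72 in the other lines), 0.772 for Hoxc10 (92.4, at most 1.82), 0.795 for Hoxc11 (60.3, at most 1.32), 1 for Hoxc12 (9.87, 0 in all others), 1 for Hoxc13 (6.16, 0 in all others), 0.756 for Hoxd4 (37.4, at most 1.44) and 1 for Hoxd8 (19.2, 0 in all others). Line #6 was also alone with Hoxd8 in resistant cells (gap 0.855, 43.1 against at most 0.730) and with Hoxb2 in resistant (0.682, 283 against at most 5.01) and P12 cells (0.734, 270 against at most 3.43). In the other group it was #7, which was lowest and listed at 0 in P12 cells for Hoxa10 (gap 0.635, at least 125 in the other lines).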

How the results depend on the processing

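The number of HOX genes called between resistant and parental cells was 0, and 1 at an adjusted p below 0.05 (Hoxa13), 3 with the line as a replicate block, and 0 to 1 with each line left out (1 without #7, and 1, Hoxa13, without #9). It was 0 in the other comparisons of states under every alternative run, the block included, which changed no other HOX call. The number differing between lines was 15, and 28 at an adjusted p below 0.05, 6 of 11 genes tested with a mean of at least 100, and 1 to 20 with each line left out. Median shares of the sum of squares, 63.2% for lines and 9.1% for states, ranged from 42.7% to 79.4% and from 3.4% to 14.1% with a line left out. Directions near 0 were not fixed. With a pseudocount of 8 the log2 fold change between P12 and resistant cells was 0.056 for Hoxa10 and -0.20 for Hoxb6, and that of Hoxb6 between P12 and parental cells -0.15. With each line left out it ranged between P12 and resistant cells from -0.54 to 0.21 for Hoxa10, -0.37 to 1.21 for Hoxb6 and -1.06 to 0.0714 for Hoxc10, between P12 and parental cells from -0.75 to 1.82 for Hoxb6, -0.0531 to 1.99 for Hoxc10 and -0.0762 to 0.76 for Hoxd4, and between resistant and parental cells from -1.02 to 2.18 for Hoxb6. The cause of these changes was not tested beyond the smaller number of samples. At 3 reads per 2.31 to 4.06 normalized counts, values below about that level cannot be told from none.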
